A study of Mus musculus with 6 samples.

Results

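36 genes of the lysosome, chosen by gene symbol as cathepsins, other lysosomal hydrolases and lysosomal membrane proteins, were followed in mouse liver among the 17738 genes that had values. All 36 were found, and all were at 1 FPKM or more in all 6 libraries, so the filter on low values removed none. Libraries extract 1 to 3 came from livers of ICR mice dosed each day with 1 g/kg of the ethyl acetate fraction prepared from a hydrosoluble Chebulae Fructus extract, and libraries water 1 to 3 from ICR mice dosed with 10 ml/kg of water. Dosing was by gavage for 1 week in both groups. Chebulae Fructus is the dried fruit of Terminalia chebula, and ICR is an outbred stock, and the labels give no sex, age or genotype. They do not say whether the libraries of a group came from different animals, so the p-values rest on a spread that may be technical. Values are FPKM, fragment counts scaled by transcript length and library size, a unit inferred from the numbers because the table names none.

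Lysosomes are acidic organelles in which proteases, glycosidases and lipases break down material delivered by endocytosis, phagocytosis and autophagy. Most of the hydrolases carry a mannose 6-phosphate tag that sorts them to the organelle, and heavily glycosylated membrane proteins line its boundary. In liver, hepatocytes use lysosomes to recycle organelles, glycogen and lipoprotein cholesterol, while Kupffer cells, the resident macrophages, are rich in lysosomes that digest phagocytosed material.

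None of the 36 genes passed limma's test of extract against water (Benjamini-Hochberg adjusted over the 10282 genes tested, 5 of which passed, 0.0486%). Cathepsin S (Ctss) had the smallest p, with a mean 2.23 times as high in the extract livers, and the leukocyte membrane protein Laptm5 was 1.44 times as high. The hydrolases Gusb and Hexa and the progranulin gene Grn were at 0.795, 0.834 and 0.765 of their water means. These 5 had an unadjusted limma p below 0.05, which is 13.9% of the 36 against 10.3% of all genes tested. By direction, 2 of the 36 were higher at that level (5.56%, against 6.50% of all genes) and 3 lower (8.33%, against 3.82%). None of those 3 stayed at that level without water 2, without extract 1 or without extract 2. Of all genes at that level 668 were higher and 393 lower, but 493 and 568 after median centring. The groups did not overlap for 7 of the 36 genes (19.4%, against 15.9% of all genes), 2 higher and 5 lower (5.56% and 13.9%, against 10.0% and 5.88%).

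The median log2 fold change of the 36 genes was 0.02, and that of all genes tested was 0.03. 20 of the 36 fold changes were positive (55.6%, against 57.5% of all genes). After median centring, median-of-ratios scaling or rescaling to a common sum it was 15 of 36, against 47.3%, 49.4% and 50.5% of all genes. The number was slightly larger under quantile normalization, where 48.7% of all genes were positive. 24 of the 36 were smaller than 0.2 on the log2 scale in either direction, and for 34 the 95% interval of the fold change lay between -1 and 1. The 2 exceptions were Ctss and Ctsc. In bulk liver, fewer cells of a type and less RNA per cell cannot be told apart.

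**Figure D1:**
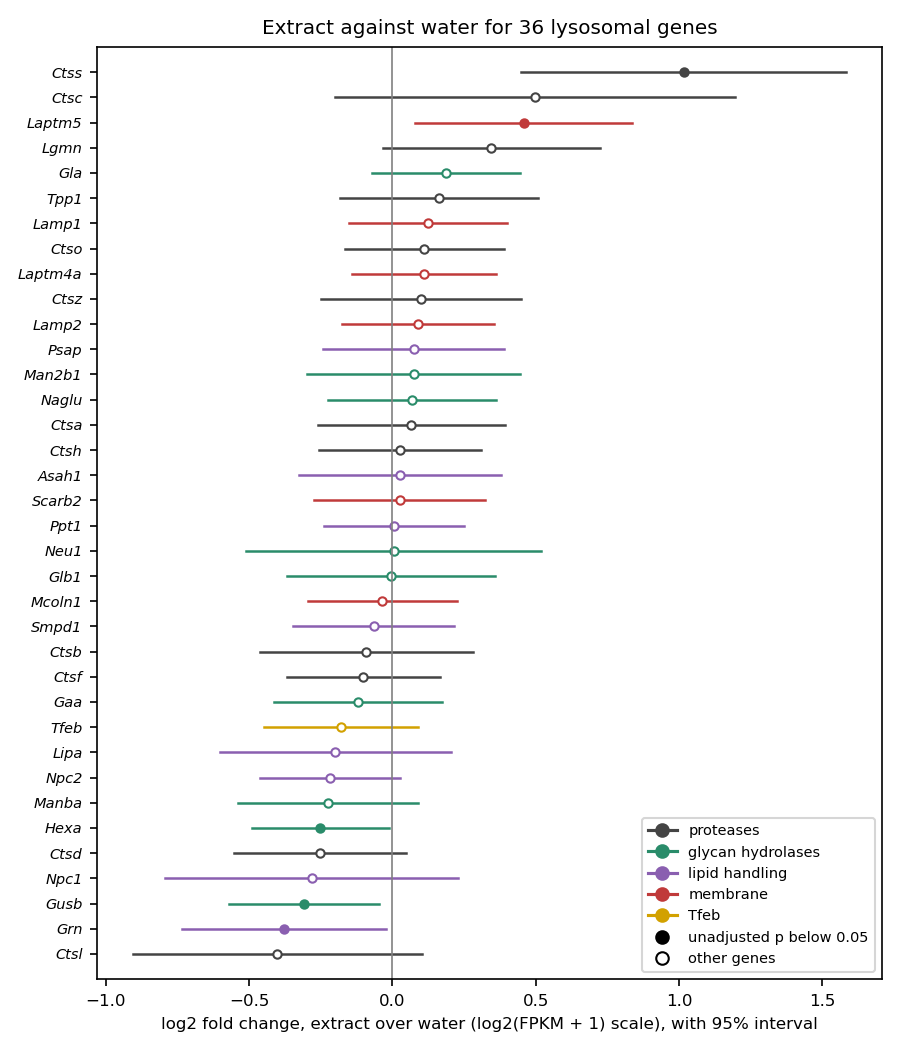
Log2 fold change of extract over water for each of the 36 genes on the log2(FPKM + 1) scale (horizontal axis), with its 95% interval from limma (bars), coloured by role. Filled points had an unadjusted p below 0.05. Ctss lies highest at 1.02 and Ctsl lowest at -0.40, and 24 genes lie within 0.2 of 0.

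The libraries themselves were uneven. On the first principal component of all genes tested, water lay at -23.1 to -3.81, extract 1 and 2 at 14.2 and 26.8, and extract 3 at 2.06, nearest to water. On the second, water 1 lay at 29.6 and the other 5 libraries at -11.9 to -2.74. Water 1 held the lowest value of all libraries for 12 of the 36 lysosomal genes and the highest for 5. FPKM sums ranged from 517984 to 583245, and read totals are unknown, so the counting error of a single value is unknown.

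The lysosomal transcripts spanned a wide range of levels. 9 genes averaged above 100 FPKM, 22 between 10 and 100, and 5 below 10. Per length, Ctsl (441 FPKM over all libraries) and Ctsb (419) were the most abundant and together made up 29.5% of the FPKM sum of the 36 genes, and with Lamp1 (313) and Lamp2 (249) they made up 48.9%. At the other end stood Gla (1.27 FPKM), Glb1 (3.30), Manba (4.48) and the transcription factor gene Tfeb (4.83). The 36 values summed to 2972, 3075 and 2878 FPKM in the water libraries and to 2690, 2803 and 3013 in the extract libraries, so the groups overlapped in total.

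**Figure D2:**
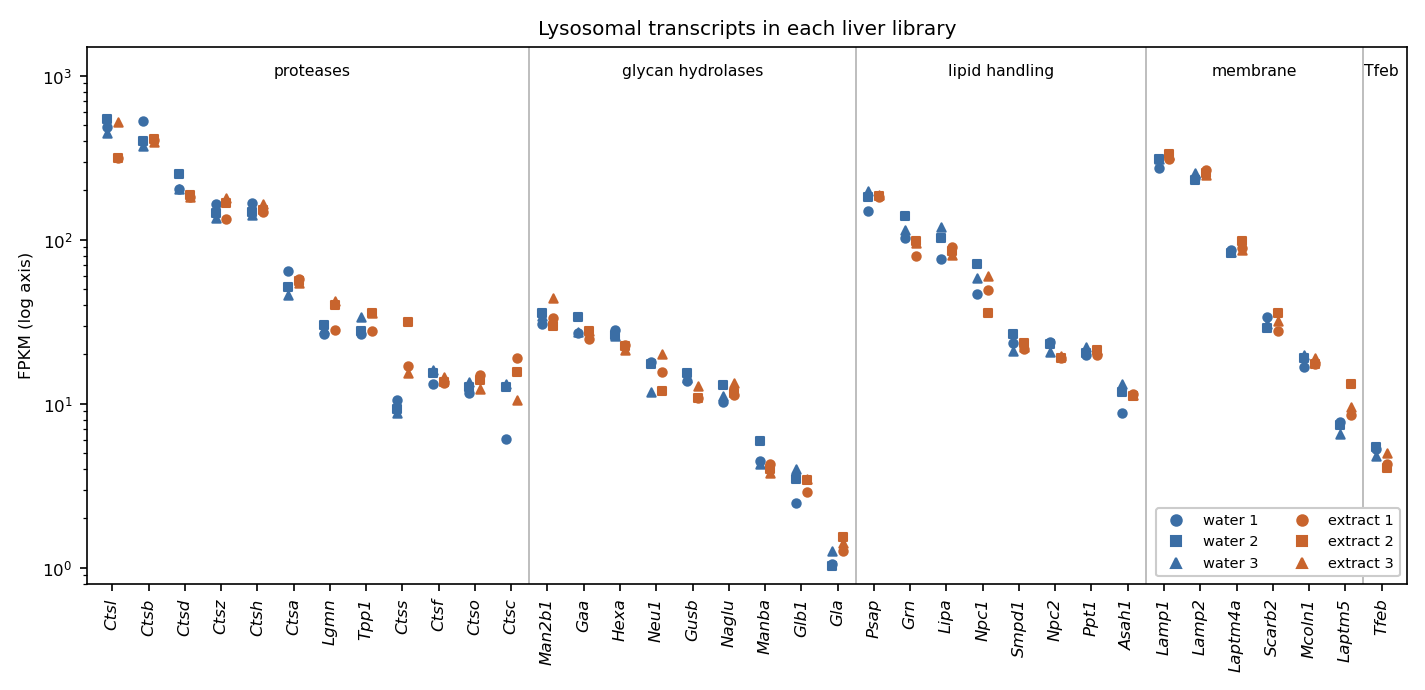
FPKM of each of the 36 genes (log axis) in the 3 water and 3 extract libraries, grouped by role and ordered by mean within each role. Ctsl and Ctsb stand highest and Gla lowest, and the groups lie over each other for most genes.

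Among the proteases, Ctss was higher in the extract libraries. Cathepsin S is a cysteine protease of antigen-presenting cells that trims the invariant chain of MHC class II molecules. Its level was 10.5, 9.29 and 8.81 FPKM in water and 16.9, 31.4 and 15.5 in extract. All extract libraries lay above all water libraries, and extract 2 was well above the other extract libraries. The log2 fold change was 1.02 with a standard error of 0.24 (95% interval 0.45 to 1.58, limma unadjusted p = 0.00347, adjusted p = 0.211), and without extract 2 it was 0.71. Ctss lies on chromosome 3 from 95526786 to 95556405 (GRCm38.p6). Its promoter window, from 250 bases before to 50 after the RefSeq start (chr3:95526536-95526835, plus strand), is shown because it holds GAAA, any 2 bases and GAAA again, a repeat typical of interferon-response elements. The match is in capitals and starts 21 bases before the transcript start.
Ctss: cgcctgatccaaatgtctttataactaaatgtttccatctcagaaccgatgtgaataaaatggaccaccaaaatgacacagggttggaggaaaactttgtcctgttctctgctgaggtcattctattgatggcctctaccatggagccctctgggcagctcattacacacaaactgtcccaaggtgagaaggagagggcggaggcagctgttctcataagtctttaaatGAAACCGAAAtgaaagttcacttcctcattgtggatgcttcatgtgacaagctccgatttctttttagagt
The repeat, searched on both strands, occurred in 3.44% of all 32851 promoter windows and in those of Ctss, Ctso and Lamp1 among the 32 lysosomal genes with a window. The log2 fold changes of Ctso and Lamp1 were 0.11 and 0.12, and neither had an unadjusted limma p below 0.05 (0.379 and 0.329).

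The abundant cathepsins L, B and D did not share that direction. Ctsl, a broad endopeptidase of the lysosomal lumen, had 491, 549 and 448 FPKM in water and 316, 315 and 526 in extract. Extract 1 and 2 lay below every water library, and extract 3 lay within the water range. Its log2 fold change was -0.40 with a standard error of 0.22 (limma unadjusted p = 0.104, adjusted p = 0.591) and -0.65 without extract 3. The unadjusted limma p of Ctsl was below 0.05 in 3 of the 20 alternatives given at the end, where its lowest adjusted p was 0.109. Ctsb, a cysteine protease with both endopeptidase and carboxypeptidase activity, had 533, 400 and 373 FPKM in water and 404, 413 and 394 in extract. Its groups overlapped, with water 2 inside the extract range, water 1 above it and water 3 below (log2 fold change -0.09, 95% interval -0.46 to 0.28). Ctsd, the aspartic protease of the lysosome, had 204, 253 and 203 FPKM in water and 182, 187 and 182 in extract. Every extract library was below every water library, by a margin smaller than the spread within water (log2 fold change -0.25, standard error 0.13, limma unadjusted p = 0.0893, adjusted p = 0.566), and without water 2 the fold change was -0.15. Reads of Ctsd, like those of Ctsa, Ctsb, Ctsz, Glb1, Grn, Hexa, Lamp1, Npc1 and Ppt1, are uncertain at exons that overlap another protein-coding gene in the GENCODE annotation. The overlapping gene lies on the same strand for Ctsd and Glb1 and on the opposite strand for the other 8, and the strand setting of the counting is not given in the sources used here.

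The other proteases gave these values. Legumain (Lgmn), an asparagine-specific protease that processes cathepsins, had 26.6, 30.3 and 28.4 FPKM in water and 28.4, 39.9 and 42.4 in extract, with extract 1 inside the water range (log2 fold change 0.35, limma unadjusted p = 0.0692, adjusted p = 0.528). Ctsc, the dipeptidyl peptidase that activates serine proteases of leukocyte granules, had the widest relative spread within water, from 6.11 FPKM in water 1 to 13.1 in water 3, against 10.6 to 19.0 in extract. Its log2 fold change of 0.50 (95% interval -0.20 to 1.19) was 0.17 without water 1. Ctsa, Ctsf, Ctsh, Ctso, Ctsz and the tripeptidyl peptidase Tpp1 had log2 fold changes from -0.10 to 0.16, and their groups overlapped. Ctsa, the carboxypeptidase that stabilizes the sialidase Neu1 and the galactosidase Glb1, was at 54.2 ± 9.32 FPKM in water and 56.2 ± 1.54 in extract (mean ± SD, n = 3 here and below).

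Of the 9 glycan-degrading hydrolases, 2 were lower in every extract library, as were 5.88% of all genes tested. Gusb, the glucuronidase of glycosaminoglycan breakdown, had 13.8, 15.4 and 14.3 FPKM in water and 10.9, 10.9 and 12.8 in extract. The extract values formed a separate, lower range (log2 fold change -0.31, standard error 0.11, limma unadjusted p = 0.0269, adjusted p = 0.395). Hexa, the alpha subunit of the hexosaminidase that degrades GM2 ganglioside, had 28.2, 26.2 and 25.8 FPKM in water and 23.0, 22.7 and 21.3 in extract, also without overlap. Both groups were tight, with a log2 fold change of -0.25 and a standard error of 0.10 (limma unadjusted p = 0.0413, adjusted p = 0.465). Neither Gusb nor Hexa had an unadjusted limma p below 0.05 without water 2, water 3, extract 1 or extract 2.

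The remaining 7 glycosidase genes overlapped between groups. Their log2 fold changes ran from -0.23 for the beta-mannosidase Manba to 0.19 for the alpha-galactosidase Gla, the least abundant of the 36 genes at 1.12 ± 0.13 FPKM in water and 1.41 ± 0.14 in extract. Gaa, the glucosidase that degrades lysosomal glycogen, was at 29.4 ± 3.70 and 26.9 ± 1.74 FPKM. Neu1, the lysosomal sialidase, varied by more than 6 FPKM within each group (11.8 to 18.1 in water and 11.9 to 20.2 in extract) around nearly equal means of 15.8 and 15.9, and Glb1, Man2b1 and Naglu had log2 fold changes of -0.01, 0.07 and 0.07.

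Of the 8 genes that handle lysosomal lipid, 5 had a negative fold change, and 7 did after median centring, median-of-ratios or quantile scaling or rescaling to a common sum. Grn encodes progranulin, a secreted protein that is cut into granulins in lysosomes and travels there with prosaposin. It had 103, 140 and 114 FPKM in water and 79.9, 97.8 and 95.7 in extract. The groups did not overlap, and water 2 was the highest library (log2 fold change -0.38, standard error 0.15, limma unadjusted p = 0.0406, adjusted p = 0.463). Npc2, the luminal carrier that hands cholesterol to the membrane protein NPC1, had 23.7, 23.3 and 20.7 FPKM in water and 19.1, 19.1 and 19.5 in extract. The extract libraries were almost identical to each other and just below the lowest water library (log2 fold change -0.22, limma unadjusted p = 0.0724, adjusted p = 0.535). Npc1 overlapped widely, at 46.6, 71.4 and 58.5 FPKM in water and 49.2, 36.1 and 60.2 in extract.

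Lipa, the acid lipase that frees cholesterol from lipoprotein esters, had 76.3, 102 and 120 FPKM in water and 90.3, 85.3 and 80.4 in extract. Water 1 was the lowest of all libraries and the other water libraries lay above the extract range (log2 fold change -0.20, 95% interval -0.60 to 0.20). Psap, the precursor of the saposins that help sphingolipid hydrolases reach their substrates, had 150, 183 and 199 FPKM in water and 183, 186 and 188 in extract, so the extract libraries lay inside the water range. Its log2 fold change was 0.07 (95% interval -0.24 to 0.39). The ceramidase Asah1, the sphingomyelinase Smpd1 and the thioesterase Ppt1 had log2 fold changes of 0.03, -0.07 and 0.01. Asah1 was also lowest in water 1, at 8.76 FPKM against 11.2 to 13.3 in the other 5 libraries.

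**Figure D3:**
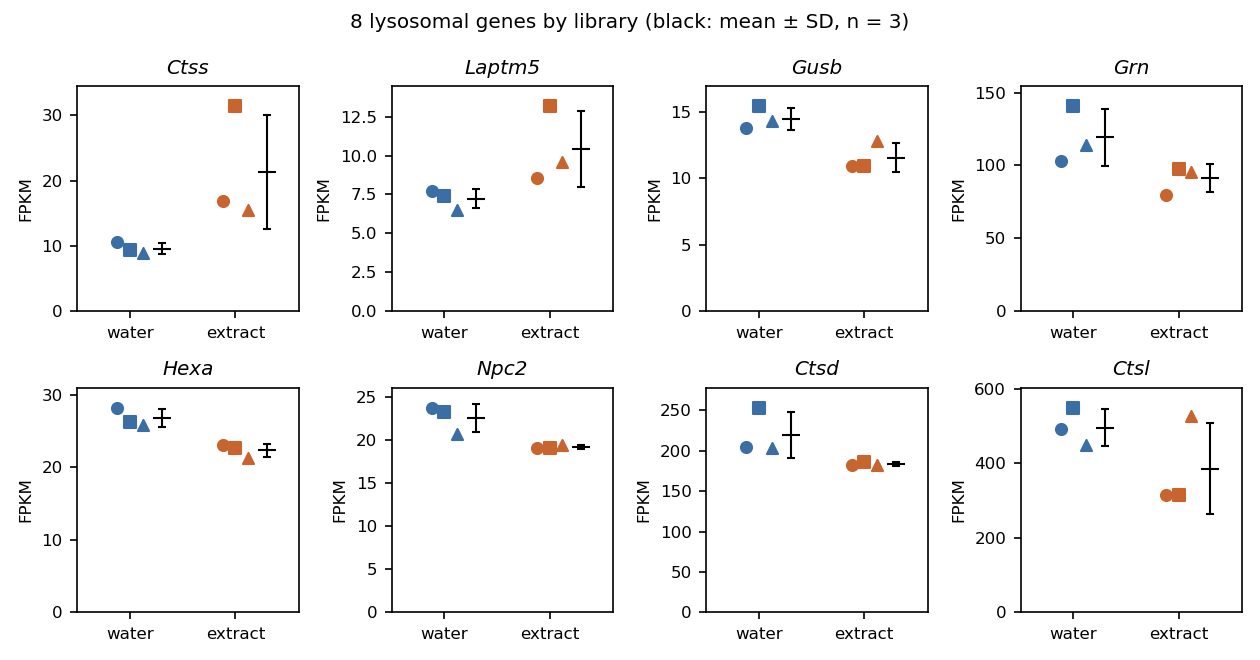
FPKM by library (points; circles, squares and triangles are replicates 1, 2 and 3) for the 7 genes whose groups did not overlap and for Ctsl, with the mean ± SD of 3 libraries in black. Ctss and Laptm5 are higher in every extract library, Gusb, Grn, Hexa, Npc2 and Ctsd are lower in every one, and extract 3 returns to the water range for Ctsl.

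Of the 6 membrane protein genes, 5 had a positive fold change, and the summed level of the 6 was 659 to 708 FPKM in water and 721 to 756 in extract. The positive number was 4 after rescaling to a common sum, median centring or median-of-ratios scaling, where Scarb2 turned negative. The summed levels were not rescaled. Water 3, with the highest water sum (708), had the lowest FPKM total over all genes, 517984 against 536615 to 564549 in extract. The sums therefore do not show that the groups were apart as a share of all FPKM. Lamp1, a major glycoprotein of the lysosomal membrane, had 276, 313 and 309 FPKM in water and 312, 335 and 331 in extract. The lowest extract library lay just below the highest water library (log2 fold change 0.12, 95% interval -0.15 to 0.40, limma adjusted p = 0.816). Lamp2, its relative that also serves chaperone-mediated autophagy, had 237, 230 and 257 FPKM in water and 265, 257 and 248 in extract, with overlap (log2 fold change 0.09, 95% interval -0.18 to 0.35). Laptm4a, a small membrane protein of late endosomes and lysosomes, was at 84.7 ± 2.38 and 91.5 ± 5.76 FPKM, and Scarb2, which carries glucocerebrosidase to lysosomes, at 31.2 ± 2.41 and 31.9 ± 3.89.

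Laptm5 was the membrane protein gene with the largest fold change. It encodes a lysosomal protein found mainly in blood-forming and immune cells. It had 7.71, 7.43 and 6.52 FPKM in water and 8.55, 13.2 and 9.56 in extract. All extract libraries lay above water, extract 2 by the most (log2 fold change 0.46, standard error 0.16, 95% interval 0.08 to 0.84, limma unadjusted p = 0.0237, adjusted p = 0.387), and without extract 2 the fold change was 0.29. Mcoln1, the calcium channel of the lysosomal membrane, had 16.7, 18.9 and 19.8 FPKM in water and 17.4, 17.5 and 19.0 in extract, inside the same range (log2 fold change -0.04, 95% interval -0.29 to 0.22).

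Macrophage markers were higher in the same libraries as Ctss and Laptm5. 15 markers of Kupffer cells and other macrophages summed to 187, 189 and 159 FPKM in water and to 240, 368 and 268 in extract, and 14 of the 15 had a positive fold change, or 13 under each rescaling. None passed limma's adjusted threshold, 9 had an unadjusted p below 0.05, and none was at 0 in all libraries. With library weights, 1 marker passed that threshold. C1qa, a complement gene of macrophages and the marker with the smallest p, had 26.4 ± 2.23 and 50.2 ± 7.89 FPKM (limma adjusted p = 0.0882). Markers did not all move, with Fcna at 17.9 ± 1.47 and 18.3 ± 5.01 FPKM (log2 fold change 0.001). Cd163, the negative one, had 1.37 ± 1.00 and 1.29 ± 1.19. For 8 of the 15 every extract library lay above every water library, against 10.0% of all genes tested. Relative to the marker sum, Ctss was at 5.62%, 4.93% and 5.54% in water and at 7.07%, 8.52% and 5.79% in extract, so it stayed higher in each extract library, by a small margin in extract 3. Laptm5 relative to the same sum was at 4.12%, 3.94% and 4.10% in water and at 3.57%, 3.58% and 3.57% in extract, lower in each extract library. The same ratio was computed for 4 more genes, and its mean was lower in extract for each, from 67.1% to 31.9% for Grn, 83.9% to 56.3% for Ctsz, 16.1% to 12.8% for Lgmn and 6.08% to 5.37% for Ctsc. In this ratio water and extract overlapped for Lgmn and Ctsc. The marker sum, its denominator, was itself higher in extract. Mean FPKM was higher in extract for Ctsz (149 to 161), Lgmn (28.5 to 36.9) and Ctsc (10.6 to 15.1), and lower for Grn (119 to 91.2). These ratios were computed after the values had been seen.

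Interferon-response genes were higher in extract libraries as well. The 22 with values, out of 24 listed, summed to 217, 231 and 216 FPKM in water and to 456, 735 and 251 in extract. All 22 had a positive fold change, also under each rescaling, 15 at an unadjusted limma p below 0.05 and none past the adjusted threshold. Past that threshold were 12 without extract 3, 4 with library weights and 5 without both water 1 and extract 3. No other alternative gave any, and counts over all genes are given at the end. In extract 3 the sum was 251 FPKM, of which Bst2 made up 115 (93.6 to 119 in water), and Ctss was at 15.5 FPKM. For 7 of the 22 genes every extract library, extract 3 included, lay above every water library, against 10.0% of all genes tested. The groups overlapped for the rest. Lymphocyte markers were low, with 1 of 11 expressed enough to be tested and sums of 3.72 to 4.98 FPKM in water and 4.76 to 5.35 in extract. Monocyte and neutrophil markers summed to 21.8 to 37.3 and 20.5 to 53.5 FPKM, with 4 of 9 tested and none at an unadjusted limma p below 0.05. Most of each sum was the single gene Lcn2 (18.9 to 31.6 FPKM in water and 14.2 to 49.3 in extract). The part of macrophage number and of interferon-response genes in the values of Ctss and Laptm5 was not tested.

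**Figure D4:**
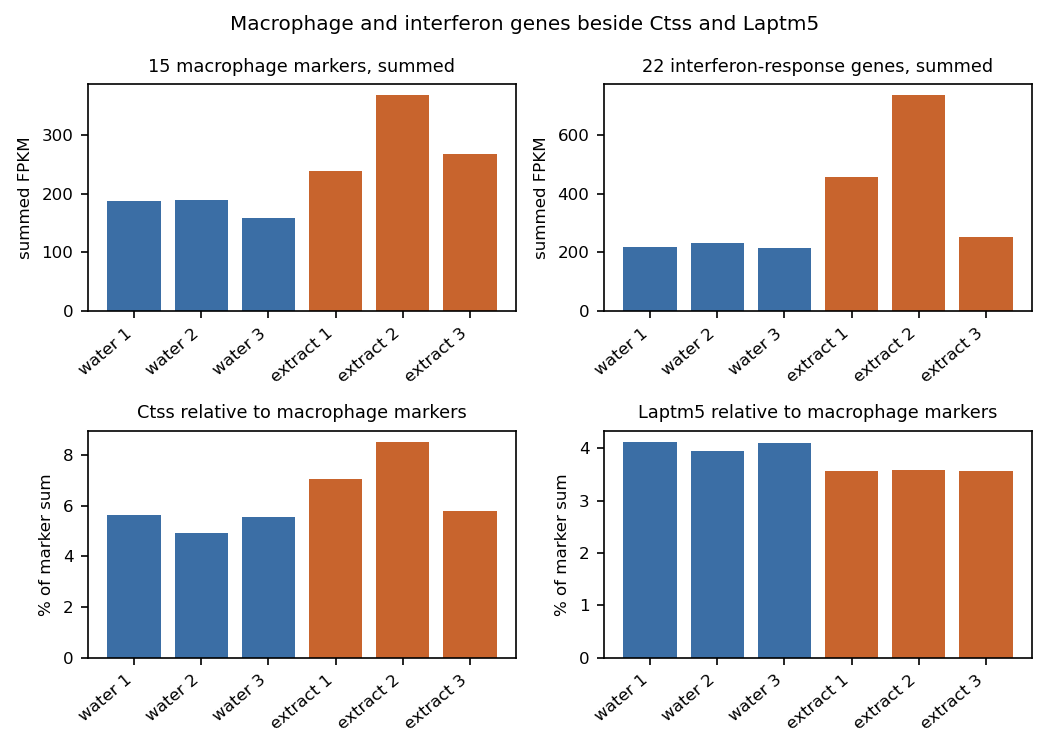
Bars give, for each library, the summed FPKM of 15 macrophage markers and of 22 interferon-response genes (top), and the level of Ctss and Laptm5 as a percentage of the macrophage marker sum (bottom). Extract 2 is highest in both sums, Ctss stays higher in extract relative to the markers (5.79% to 8.52%, against 4.93% to 5.62%) and Laptm5 is lower (3.57% to 3.58%, against 3.94% to 4.12%).

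Markers of other cell types are given for comparison with the lysosomal genes that were lower in every extract library. Hepatocyte markers, which include albumin, summed to 87626 to 92170 FPKM in water and 70317 to 84520 in extract, with 5 of 10 fold changes positive. Alb made up most of each sum, at 62160 to 71236 FPKM in water and 45371 to 58259 in extract. Apart from Alb and Ass1, both lower in every extract library, the groups overlapped for these markers. Hepatocyte markers were the most abundant of the marker lists. All 11 sinusoidal endothelial markers had a negative fold change, also under each rescaling, with a sum of 162 to 197 FPKM in water and 141 to 169 in extract. Of them 1, Fcgr2b, had an unadjusted limma p below 0.05. The negative number was 10 without water 2 or water 3, and 9 without water 1, extract 1 or extract 3 or with library weights. It was 8 without both water 1 and extract 3. Stellate cell markers (6 of 8 fold changes positive) summed to 169 to 181 and 181 to 234 FPKM. Of 6 cholangiocyte markers 2 were tested, both positive, with sums of 12.3 to 19.5 and 18.4 to 31.9 FPKM. Most of each sum was the single gene Spp1 (10.6 to 16.5 FPKM in water and 16.5 to 27.1 in extract). Of 5 red cell genes tested 4 were negative, with sums of 792 to 2775 and 529 to 810 FPKM. Their part in the values of Gusb, Hexa, Grn, Npc2 and Ctsd was not tested.

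Tfeb encodes a basic helix-loop-helix factor that, when it enters the nucleus, switches on many lysosomal genes through E-boxes known as CLEAR elements. Its own transcript had 5.33, 5.43 and 4.80 FPKM in water and 4.29, 4.09 and 5.04 in extract, with extract 3 inside the water range. The log2 fold change was -0.18 with a standard error of 0.12 (95% interval -0.45 to 0.09, limma adjusted p = 0.672). RefSeq promoter windows (GRCm38.p6) were matched for 32 of the 36 genes, with 37 starts in all. The E-box core CACGTG, a palindrome and so the same on both strands, occurred in the windows of 11 of the 32 genes, at 11 of their 37 starts, and in 7.15% of all windows. The longer TCACGTG, which contains it, was found on either strand for 9 genes and in 3.77% of all windows. The most complete form searched, TCACGTGA, was found for Ctsa, Ctsd, Gla and Mcoln1 and in 0.974% of all windows.

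These E-boxes clustered near transcript starts for some genes. Lamp1 had 4 cores between 61 and 15 bases before its start, and Mcoln1 had cores 71 and 45 bases before. The 9 genes with TCACGTG are shown over 27 bases each, with the match and any flanking A of the palindrome in capitals, so that the shared core and its varied flanks can be compared. Where a window had several matches, the one nearest its downstream end is given.
Ctsa: tgcagatgcTCACGTGAccagagctac
Ctsd: gcccgcgtcTCACGTGAcccgttgagg
Gaa: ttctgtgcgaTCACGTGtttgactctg
Gla: agatctcggTCACGTGAgcaactctcg
Glb1: tgcttctgagTCACGTGgcctacagag
Lamp1: cgtgaccacaTCACGTGcggaacggag
Lgmn: ggaatgtctgTCACGTGgtccatttta
Mcoln1: gcgccccgcTCACGTGAccgcggcgca
Naglu: aaccttcaggTCACGTGgcccgaggtc
In the same order these stretches lie at chr2:164833768-164833794 (plus strand), chr7:142387909-142387935 (minus strand), chr11:119267812-119267838 (plus strand), chrX:134601183-134601209 (minus strand), chr9:114401019-114401045 (plus strand), chr8:13159135-13159161 (plus strand), chr12:102439126-102439152 (minus strand), chr8:3500464-3500490 (plus strand), chr11:101070010-101070036 (plus strand) in GRCm38.p6.
The window of Ctsd, the gene with that motif whose groups did not overlap, is given whole (chr7:142387778-142388077, minus strand), with its 2 matches in capitals.
Ctsd: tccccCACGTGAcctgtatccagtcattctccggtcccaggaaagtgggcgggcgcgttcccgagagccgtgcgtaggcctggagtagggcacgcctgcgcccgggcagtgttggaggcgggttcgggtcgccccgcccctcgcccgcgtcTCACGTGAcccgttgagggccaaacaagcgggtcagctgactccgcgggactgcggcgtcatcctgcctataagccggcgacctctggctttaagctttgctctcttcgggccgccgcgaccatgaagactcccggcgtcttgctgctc
The 9 genes did not share a direction, with 5 positive and 4 negative log2 fold changes from -0.25 (Ctsd) to 0.35 (Lgmn) and a median of 0.07. A match describes these bases only and does not show binding.

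**Figure D5:**
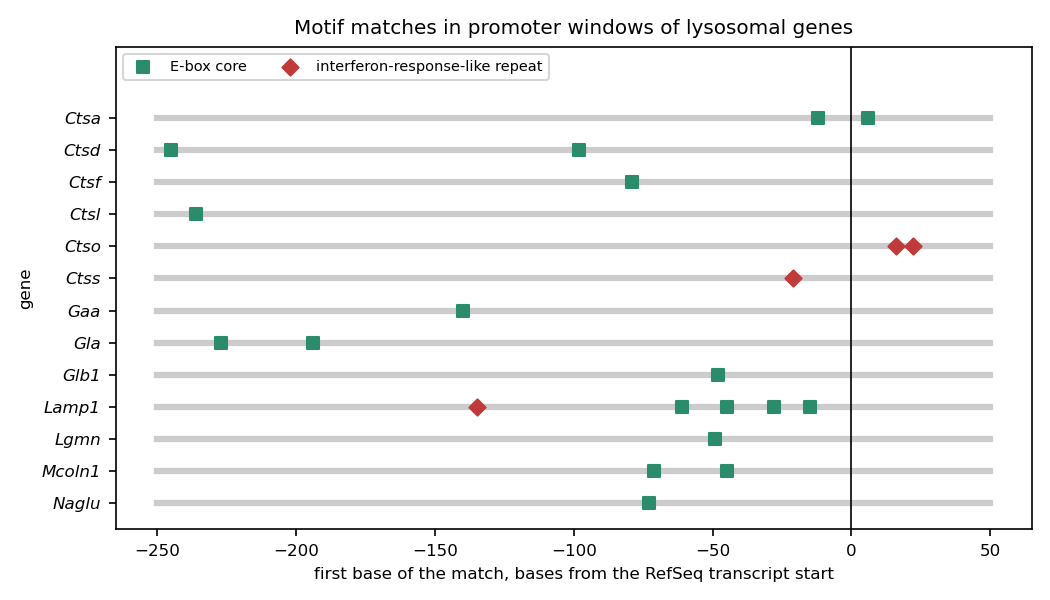
First base of each match to CACGTG (green squares) and the GAAA repeat (red diamonds) in promoter windows of lysosomal genes, in bases from the RefSeq transcript start (vertical line; grey bars span 250 bases before to 50 after). Lamp1 carries 4 of the green matches, and the match of Ctss starts 21 bases before its start.

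Other genes of the pathway gave a similar picture, with none past limma's adjusted threshold in any of 7 lists. Across the alternatives given at the end, 1 sorting gene passed, with library weights, and no other gene of these lists did. The counts of positive fold changes below were mostly smaller under the 4 rescalings, at 12 to 14 for the other hydrolases, 20 for the other membrane proteins, 9 to 12 for the proton pump, 9 for sorting, 6 to 7 for the relatives of Tfeb and 12 to 14 for autophagy. Over all genes tested, 10.3% had an unadjusted limma p below 0.05 (6.50% higher and 3.82% lower). This share is the background for the counts at that level in each list. Among 35 other tested hydrolases and activators, 17 had positive and 18 negative fold changes, with a median log2 of -0.01. Of these 35, 3 had an unadjusted limma p below 0.05, all lower. They were the hyaluronidase gene Hyal2 (27.8 ± 1.27 against 20.4 ± 1.51 FPKM, limma adjusted p = 0.227), the GM2 activator Gm2a (51.4 ± 2.41 against 40.6 ± 4.84), which presents ganglioside to the enzyme that contains the Hexa subunit, and the carboxypeptidase Scpep1 (33.0 ± 3.12 against 26.7 ± 1.54). No other hydrolase was higher at that level, and the highest fold change of the list belonged to the arylsulfatase Arsa (0.26, unadjusted p = 0.129).

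Other lysosomal membrane proteins had 21 of 27 fold changes positive and a median log2 of 0.10. The positive number was 15 without extract 3 (median log2 0.05), 22 without extract 1 or extract 2, and 17 with library weights. After rescaling to a common sum, none of the list was higher at an unadjusted limma p below 0.05, and 2 were lower. The metal transporter Slc11a2 (4.95 ± 0.12 against 6.49 ± 0.70 FPKM) and the lipid transporter Abca2 (4.45 ± 1.63 against 6.85 ± 0.19) were higher and Cln3, a lysosomal membrane protein lost in a childhood storage disease, lower (7.72 ± 0.57 against 6.02 ± 0.64) at unadjusted limma p of 0.0201, 0.0307 and 0.0294. Slc11a1, the related metal transporter of macrophage phagosomes, had 2.22 ± 0.78 and 3.43 ± 0.67 FPKM.

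For the proton pump that acidifies the lumen, 11 of 20 tested subunits had a positive fold change (median log2 0.03). Atp6v0d2, an alternative d subunit known from osteoclasts and macrophages, was the clearest of them, with 6.39, 6.93 and 8.77 FPKM in water and 2.85, 1.36 and 4.00 in extract. Its groups were well apart, with a log2 fold change of -1.22 and a standard error of 0.26 (limma unadjusted p = 0.00185, adjusted p = 0.179), a direction opposite to that of the macrophage marker sum. Atp6v1h (11.3 ± 0.57 against 13.9 ± 0.74 FPKM) was higher at an unadjusted limma p of 0.0278. Atp6v0e2 reached 1 FPKM in 1 water library and in all extract libraries.

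Among 26 genes of sorting to the lysosome (15 positive, median log2 0.01), Sort1 alone had an unadjusted limma p below 0.05. It encodes sortilin, a receptor that carries cargo from the Golgi to endosomes, and had 2.42, 1.57 and 2.14 FPKM in water and 4.32, 3.11 and 4.26 in extract. Each extract library was above each water library (log2 fold change 0.69, standard error 0.16, limma unadjusted p = 0.00270, adjusted p = 0.201). The 18 tested relatives of Tfeb and components of the nutrient-sensing complex on the lysosome (10 positive, median log2 0.01) had none at that level, and Tfe3 was at 9.10 ± 0.11 and 10.5 ± 0.63 FPKM.

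Of 30 autophagy genes, 15 had positive and 15 negative fold changes. Bnip3, a receptor for the removal of mitochondria (192 ± 20.0 against 142 ± 17.8 FPKM), and Map1lc3b, a core protein of the autophagosome membrane (89.3 ± 5.91 against 71.8 ± 4.14), had unadjusted limma p of 0.0174 and 0.0256. Both were lower in extract. Of the cathepsin inhibitors, Cst3 and Cstb were expressed enough to be tested. Cst3, which encodes the secreted cystatin C, had 79.2, 63.6 and 68.0 FPKM in water and 115, 79.1 and 96.8 in extract, with extract 2 just below water 1 (log2 fold change 0.45, limma adjusted p = 0.393). Cstb, which encodes the intracellular cystatin B, had 70.6, 54.2 and 59.7 FPKM in water and 46.6, 48.2 and 48.5 in extract, without overlap (log2 fold change -0.35, limma adjusted p = 0.39).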

How the data were processed

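Poly(A)-selected liver RNA was sequenced in 6 libraries. The submitters' processing notes name RSEM 1.2.12, HISAT2 2.0.4, DESeq2 1.4.5, Bowtie2 2.2.5 and GRCm38 without saying what each did. The deposited table names no unit. Its values were read as the authors' FPKM, since weighting them by the longest transcript's length gave 118.1% to 120.8% of a library's fragments. FPKM is relative, so abundant transcripts can shift the rest. The ratio of low values between libraries was most often 1 in all 15 pairs, so reads could not be recovered. 11 symbols altered by a spreadsheet were restored from gene IDs.

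limma 3.58.1 (R 4.3.3) with a trended prior was run on log2(FPKM + 1) over 10282 genes that reached 1 FPKM in 3 or more libraries, and was tested on simulated data. This scale understates fold changes of low genes. The threshold was an adjusted p below 0.05. The members and gene lists were chosen with earlier results of these data known. By rule, lysosomal genes with an unadjusted p below 0.05 or without overlap, and 8 others whatever their result, have values in every library. Those of Ctsc, Lgmn, Npc1, Asah1, Neu1, Atp6v0d2, Sort1, Cst3 and Cstb were added after being seen. Companion lists name at most 4 genes, by smallest p.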

Additional observations from a re-analysis of the deposited data

How the results depend on the processing

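No lysosomal gene passed limma's adjusted threshold under any of the 20 alternatives, of which 19 were planned and 1, leaving out water 1 and extract 3 together, was added after seeing the data. Ctss kept its direction and an unadjusted limma p below 0.05 in all 20, with log2 fold changes from 0.71 to 1.26 and adjusted p from 0.0862 to 0.518. Gusb, Grn, Hexa and Laptm5 kept their direction in all 20 and had an unadjusted p below 0.05 in 15, 14, 12 and 18. The count of lysosomal genes at that level (5) was 1 to 6 when 1 library was left out, 3 with the replicate block, 9 with library weights and 8 without water 1 and extract 3, while all genes were at 7.17% to 15.5% (library left out), 8.97%, 18.7% and 17.7%. The count without overlap (7) was 7 to 13 when 1 library was left out and 23 without both, where fewer libraries make overlap rarer. The direction reversed under at least 1 alternative for 13 of the 36 genes, all with a log2 fold change of at most 0.09 in either direction. Of the genes given by library under the naming rule these were Ctsb (0.0630 without water 1, 0.00806 with library weights, 0.0805 without both; -0.195 without water 3), Psap (-0.0408, -0.00182 and -0.0507 likewise; 0.161 without water 3) and Mcoln1 (0.0136 without water 3; -0.103 without water 1). The other 10 were Asah1, Ctsa, Ctsh, Glb1, Man2b1, Naglu, Neu1, Ppt1, Scarb2 and Smpd1, and Ppt1 kept its sign in 10 of 20 alternatives, Neu1 in 12 and Asah1 in 13. The median of the 36 genes ranged from -0.07 to 0.04.

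Over all genes the count of 5 was 0 to 49 when 1 library was left out, 0 with no filter, median centring, median-of-ratios scaling or the replicate block (with 1566, 1061, 1044 and 922 genes whose unadjusted limma p was below 0.05), 2 with pseudocounts of 0.1 or 0.01, a mean of at least 1 FPKM or quantile normalization, 133 with library weights and 57 without water 1 and extract 3. The cause was not tested. Libraries that share a number did not deviate together (correlations of -0.02, -0.18 and 0.12), and not every library correlated best with its own number, so numbers were not treated as pairs. Depth is unknown, which limits the genes of a few FPKM most.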
